A study of Mus musculus with 32 samples.

Results

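Adipocytes of the mouse line 3T3-L1 that had received TNF-alpha together with CAP7 were compared with untreated adipocytes, to see which genes were left below the untreated level, which were back at it and which lay past it. The comparison rested on 8 of the 32 libraries of the series, 4 of cells given TNF-alpha plus CAP7 and 4 of cells given DMSO vehicle alone, and it covered every one of the 14428 genes with enough counts to be tested. All groups were fat cells differentiated from the same preadipocyte line with insulin, dexamethasone and IBMX and then treated for 24 h. The groups used here were basal_DMSO (vehicle without TNF-alpha, called untreated), TNF_DMSO (vehicle with TNF-alpha, called TNF alone), TNF_CAP7 (CAP7 with TNF-alpha), basal_CAP7 (CAP7 without TNF-alpha), and TNF_ROSI and TNF_SCO (rosiglitazone or SCO with TNF-alpha), each with 4 libraries. The labels do not say what CAP7 is or give a dose of any treatment, and SCO is not spelled out beside an Artemisia scoparia extract in the title of the series. 3T3-L1 is a single clonal line kept in culture, so the libraries hold no animal-to-animal variation. The 4 libraries of each group are biological replicates by their titles, with no day, plate or batch named, so p-values measure the spread between these libraries, which may be technical.

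TNF-alpha is an inflammatory cytokine. Through its receptors it frees the transcription factor NF-κB from its inhibitor proteins, and NF-κB then switches on chemokines, acute phase proteins and its own inhibitors. In fat cells TNF-alpha also represses PPARγ and C/EBPα, the transcription factors that hold the adipocyte program in place, and with them the genes of fat storage, adiponectin and the insulin-responsive glucose transporter. Rosiglitazone is a synthetic agonist of PPARγ.

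The library totals were 11.3 to 14.7 M counts (M, counts in 1e6) in 3 of the untreated libraries, 21.9 M in the remaining one and 19.7 to 26.7 M with TNF-alpha plus CAP7. The 4 TNF plus CAP7 libraries lay between the untreated libraries and those of TNF alone on the leading principal component of all 32 libraries, with 65.9% of their variance. Their scores were 27.5, 32.5, 32.8 and 33.4, against -31.05 to -26.6 in untreated cells and 56.7 to 60.4 with TNF alone. The first TNF plus CAP7 library, at 27.5, was nearest to untreated, and without it 3005 genes were called higher and 2628 lower than in untreated cells. As a check of the labelled cell type, the summed level of 22 adipocyte marker genes was 60581 to 64239 CPM (counts per 1e6 counts, scaled by edgeR's TMM factors) in untreated cells, 45759 to 55220 CPM with TNF plus CAP7 and 20123 to 23381 CPM with TNF alone. Fabp4, itself above untreated, was the largest part of this sum with TNF plus CAP7. Of the 22 genes, 18 were below untreated, and the median log2 change was -0.90. The summed level of 24 preadipocyte and fibroblast markers was 5461 to 5831 CPM in untreated cells and 3541 to 4636 CPM with TNF plus CAP7. In bulk RNA, fewer cells of a type and less RNA per cell cannot be told apart. The leukocyte genes Ptprc, Adgre1 and Itgam and the endothelial genes Cdh5 and Kdr had 0 counts in all 8 libraries of the comparison. Other vessel markers were counted: over the untreated and the TNF plus CAP7 libraries Pecam1 had 21 and 43 counts, Myh11 321 and 181, and Rgs5 7 and 2. Only 4 of 17 leukocyte and 4 of 14 vessel markers had enough counts to be tested, with summed levels of at most 8.28 and 5.63 CPM with TNF plus CAP7.

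Against untreated cells, edgeR's quasi-likelihood test with Benjamini-Hochberg adjustment called 3093 genes higher, 21.4% of those tested, and 2765 lower, 19.2%, at an adjusted p under 0.05 (40.6% in either direction). The change was at least 2-fold in 913 of the higher and 664 of the lower genes, and the 4 and 4 libraries did not overlap in 5251 genes (36.4%). A gene was taken as back at the untreated level where it was not called and the 95% interval of its change lay inside a band of 1.5-fold in either direction, which was so for 4592 genes (31.8%). The other 3978 uncalled genes had intervals that reached outside the band and are called unresolved. Conversely, 941 of the higher and 843 of the lower genes were called although their whole interval lay inside the band. The share of calls that were higher was 52.8% with TMM scaling and 40.2% with library size alone, which moved the median change of all genes by -0.087 on the log2 scale.

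The genes were then sorted by what TNF alone had done to them, against the same untreated libraries. TNF alone had lowered 3965 genes (27.5% of those tested). With TNF plus CAP7, 2237 of these (56.4%) were left below untreated, 1018 (25.7%) were within the band, 581 (14.7%) were unresolved and 129 (3.3%) were above untreated. TNF alone had raised 3852 genes (26.7%), of which 2499 (64.9%) were left above untreated, 945 (24.5%) were within the band, 376 (9.8%) were unresolved and 32 (0.8%) were below untreated. Among the 6611 genes that TNF alone had not changed by this test, TNF plus CAP7 had 465 higher (7.0%) and 496 lower (7.5%) than untreated cells. Both comparisons use the same untreated libraries, so chance values there enter both. The TNF-called genes were also taken from the SCO and ROSI libraries, which are in neither comparison. There the TNF response is that of cells also given SCO or rosiglitazone, not of vehicle cells. Of the genes lowered there, 2108 were left below, 1246 were within the band, 603 were unresolved and 166 were above untreated. Of those raised there, 2458 were left above, 1194 were within the band, 625 were unresolved and 113 were below. The total numbers of lowered and raised genes differ from those above, so these counts do not compare directly.

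**Figure D1:**
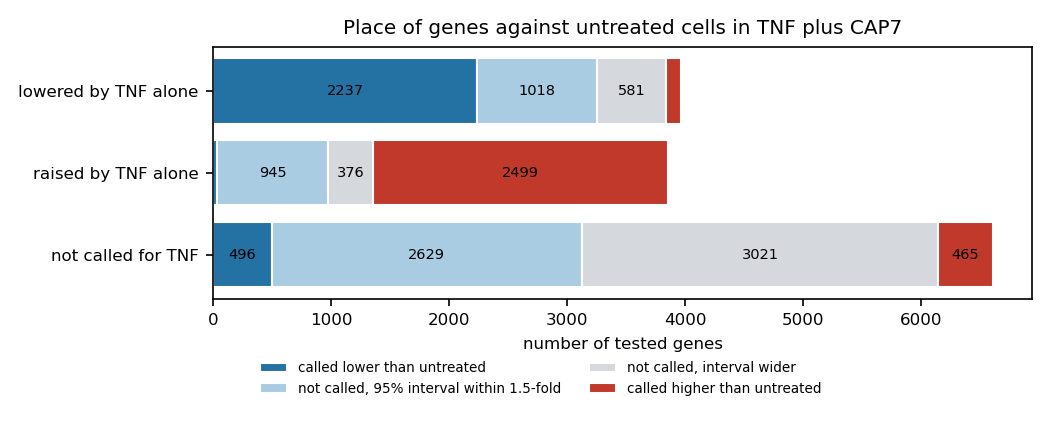
Stacked bars give the number of tested genes (horizontal axis) that were called lower than untreated, not called with the 95% interval within 1.5-fold, not called with a wider interval, or called higher after TNF plus CAP7. There is 1 bar each for genes that TNF alone had lowered, raised or not called, and the longest parts of the first 2 bars are the 2237 lowered genes left below and the 2499 raised genes left above.

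Genes with large TNF changes were then followed. Their choice and the test of a move from TNF alone use the same TNF alone libraries, so chance values there favour a move back. TNF alone had lowered 1460 genes at least 2-fold. CAP7 moved 873 of them back (higher with TNF plus CAP7 than with TNF alone by the test) and 28 further down, and the median change from untreated went from -1.63 with TNF alone to -0.81 with TNF plus CAP7 (quartiles -1.40 and -0.45). Of the 1460, 956 were still called and 499 were still at least 2-fold down, and 31 were past untreated. The intervals of 156 lay within the band, whether called or not, so these can overlap the called genes. TNF alone had raised 1256 genes at least 2-fold. CAP7 moved 548 of these back and 46 further up, and the median went from 1.73 to 1.35 (quartiles 0.82 and 2.30). Of the 1256, 1066 were still called and 764 were still at least 2-fold up, and 0 were called past untreated. The intervals of 19, whether called or not, lay within the band. Over all genes tested, TNF plus CAP7 was higher than TNF alone in 18% (2593) and lower in 14.2% (2053). With library size alone these were 1954 higher and 3343 lower, so the balance turned, and the median of all genes moved by -0.104. The difference between the lowered and the raised genes in how far they returned was not tested.

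Among the genes left below untreated were the hormone, the master regulators and the fat-making enzymes of the adipocyte. Changes below are log2 values with a standard error derived from edgeR's quasi-likelihood F test. It is the size of the change divided by the square root of F, since the test itself reports no standard error. Levels are CPM with the SD over 4 libraries, and the adjusted p-values are those of the same test. Adipoq (ENSMUSG00000022878), which encodes adiponectin, was at 9588, 9771, 9824 and 9351 CPM in the untreated libraries, at 2669, 2655, 2699.6 and 3192 with TNF alone and at 4210.0, 3804, 4857 and 4122 with TNF plus CAP7. The 3 groups did not overlap, and every TNF plus CAP7 library stood between the other groups. Adipoq was thus -1.18 ± 0.072 against untreated (adjusted p = 1.14e-16), after -1.78 ± 0.073 with TNF alone. Pparg (ENSMUSG00000000440), the nuclear receptor itself, was at 561, 588, 598 and 540.5 CPM in untreated cells, 217, 213, 207 and 217 with TNF alone and 278, 268, 272 and 228 with TNF plus CAP7. It was left 1.13 ± 0.079 below untreated (adjusted p = 6.06e-15), and CAP7 alone had Pparg 0.49 ± 0.078 below untreated too. Cebpa, the partner of PPARγ in the adipocyte program, went from 341 ± 12.7 CPM in untreated cells to 49.1 ± 2.77 with TNF alone and 173 ± 20.4 with TNF plus CAP7, which left it 0.98 ± 0.083 below.

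The genes that stayed furthest down included cell surface receptors and secreted proteins. Thrsp, a nuclear regulator of lipogenesis, was at 343, 335, 375 and 288 CPM in untreated cells, at 9.03, 6.57, 7.39 and 9.27 with TNF alone and at 53.1, 37.5, 56.4 and 33.7 with TNF plus CAP7. CAP7 had brought Thrsp up by 2.48 ± 0.16 from TNF alone, and it remained 2.89 ± 0.15 below untreated (adjusted p = 3.98e-19). Adrb3, the beta-3 adrenergic receptor that starts lipolysis, was at 303, 286, 295 and 266 CPM untreated and at 37.9, 27.9, 31.7 and 28.7 with TNF plus CAP7, with 9.36, 7.54, 6.55 and 7.12 under TNF alone. All 4 libraries of TNF plus CAP7 lay under the lowest untreated library, and Adrb3 was -3.19 ± 0.13 against untreated. Car3, a carbonic anhydrase abundant in fat, stood at 4.39 ± 0.588 CPM against 37.4 ± 9.27 untreated (-3.09 ± 0.23). For these 3 genes CAP7 had moved the level towards untreated without reaching it.

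A further set was lower with TNF plus CAP7 than with TNF alone, or showed no change from TNF alone that passed the test. Ccl6, a chemokine, was at 589, 656, 624 and 710.1 CPM in untreated cells, 98.9, 105, 108 and 149 with TNF alone and 40.7, 45.4, 36.9 and 43.2 with TNF plus CAP7. It was the furthest from untreated of the named lowered genes, at -3.96 ± 0.13, and CAP7 without TNF-alpha had it 1.88 ± 0.12 below untreated, from 645 ± 51.5 to 175 ± 17.9 CPM. Rasl11a, a Ras-like GTPase gene, followed the same order, at 29.4 ± 4.05 CPM untreated, 9.2 ± 1.01 with TNF alone and 3.78 ± 0.758 with TNF plus CAP7. Gas6, a ligand of the TAM receptor kinases that clear dying cells, went from 313 ± 6.32 to 106 ± 4.53 and 63.2 ± 9.84 CPM. Adcyap1r1, the receptor of the peptide PACAP, was -3.65 ± 0.19 against untreated, Aspn, a small matrix proteoglycan, -3.20 ± 0.13, Hes1, a transcriptional repressor of the Notch pathway, -3.00 ± 0.13, and Sult1a1, a sulfotransferase, -3.17 ± 0.25. Their differences between TNF plus CAP7 and TNF alone did not pass the test, at 0.48 (95% interval 0.04 to 0.91), -0.27 (-0.55 to 0.00), 0.08 (-0.20 to 0.36) and -0.39 (-0.91 to 0.12).

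Of 22 tested adipocyte identity genes TNF alone had lowered 21, and with TNF plus CAP7 18 were left below, 1 was within the band and 2 were above untreated. Their median went from -2.01 with TNF alone to -0.90, beside 0.00 over all genes tested. Of all genes lowered by TNF alone, 56.4% were left below, 25.7% were within the band and 3.3% were above. The furthest below untreated in this list were Adrb3, Car3 and Thrsp, given above, followed by Retn, the adipokine resistin, which was -1.82 ± 0.11 against untreated. Lpl, the lipase that frees fatty acids from lipoproteins, was at 12573 ± 459 CPM in untreated cells, 3799 ± 125 with TNF alone and 6114 ± 713 with TNF plus CAP7, a difference of -1.04 ± 0.082 from untreated. Slc2a4, the insulin-responsive glucose transporter GLUT4, was -0.81 ± 0.097, Klf15, a metabolic transcription factor, -0.95 ± 0.098, Plin1, the main coat protein of the lipid droplet, -0.61 ± 0.06, and Lipe, the hormone-sensitive lipase, -0.50 ± 0.077. Cidec, which fuses lipid droplets, was at 1354, 1272, 1322 and 1238 CPM untreated, 101, 82.1, 77.3 and 99.9 with TNF alone and 730.0, 690.4, 748 and 726 with TNF plus CAP7. CAP7 raised Cidec by 3.01 ± 0.082 from TNF alone, it remained 0.84 ± 0.076 below untreated, and with CAP7 and no TNF-alpha it lay 1.35 ± 0.076 above untreated.

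Genes of fat synthesis and storage were divided between these places. So were all genes lowered by TNF alone, with 56.4% left below, 25.7% within the band, 14.7% unresolved and 3.3% above. Fasn, the fatty acid synthase, was at 601, 556, 629 and 537 CPM in untreated cells and at 192, 128, 145 and 159.5 with TNF plus CAP7, with no overlap, and was -1.90 ± 0.12 against untreated (adjusted p = 2.21e-16). Scd1, which desaturates fatty acids and has close relatives whose reads could be shared, was -1.25 ± 0.086. Of 21 lipogenesis genes, 18 of them lowered by TNF alone, 10 of the 18 were left below, 2 were within the band, 1 was unresolved and 5 were above untreated. With library size alone 3 members of this list were called above untreated, against 7 with TMM. Of 22 triglyceride synthesis genes TNF alone had lowered 16, of which 10 were left below, 4 were within the band and 2 were above, and of 22 lipolysis and droplet genes it had lowered 16, of which 11 were left below, 1 was within the band, 2 were unresolved and 2 were above. The medians of these 3 lists against untreated were -0.26, -0.10 and -0.29 with TNF plus CAP7, and -1.08, -1.38 and -1.77 with TNF alone.

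A smaller group was back at the untreated level. Slc25a34, a mitochondrial carrier, was at 52.5, 52.8, 37.6 and 49.5 CPM in untreated cells, 7.88, 5.45, 5.27 and 5.64 with TNF alone and 43.1, 46.8, 34.7 and 44.8 with TNF plus CAP7. TNF alone had lowered it by 2.99 ± 0.14, and with CAP7 it differed from untreated by -0.18 ± 0.12, with a 95% interval of -0.44 to 0.07. Retsat (ENSMUSG00000056666), which saturates retinol, stood at 225, 216, 227 and 241 CPM untreated, 68.2, 66.8, 64.1 and 77.9 with TNF alone and 234, 209.8, 235 and 227 with TNF plus CAP7. The untreated and TNF plus CAP7 libraries of Retsat overlapped, and the difference was -0.00 ± 0.061 (-0.13 to 0.12). Idh3a, a subunit of the isocitrate dehydrogenase of the citric acid cycle, was at 225 ± 5.34 CPM untreated, 68.9 ± 4.47 with TNF alone and 219.7 ± 18.6 with TNF plus CAP7. Trarg1, which regulates the traffic of GLUT4, was 0.08 ± 0.076 against untreated, Fitm2, a protein of droplet formation, -0.09 ± 0.076, Tmem182, a membrane protein, 0.10 ± 0.12, and Ppargc1a, the coactivator of mitochondrial genes, -0.26 ± 0.14, all uncalled and inside the band.

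Some of these genes lay well above untreated when CAP7 was given without TNF-alpha. Idh3a was 1.22 above untreated with CAP7 alone, Slc25a34 1.18, Tmem182 1.34, Trarg1 0.85, Ppargc1a 0.78, Fitm2 0.69 and Retsat 0.57. These 7 genes were therefore near untreated with TNF-alpha and CAP7 together, below it with TNF alone and above it with CAP7 alone. Dgat2, the last enzyme of triglyceride synthesis, differed from them: it was at 368 ± 14.3 CPM untreated, 329 ± 34.2 with TNF plus CAP7 and 299 ± 17.6 with CAP7 alone, -0.30 ± 0.075 against untreated. Its difference with TNF plus CAP7, -0.16 ± 0.075, was uncalled here and was called with library size alone (-0.25, adjusted p = 0.00561), with a stricter filter on low counts (-0.17, adjusted p = 0.0498) and without the third TNF plus CAP7 library (-0.21, adjusted p = 0.029). Aldh3b2, an aldehyde dehydrogenase, stood at 0.31 ± 0.13 and was called without the second or the fourth TNF plus CAP7 library (0.36, adjusted p = 0.0438, and 0.44, adjusted p = 0.00442), without the third untreated library (0.36, adjusted p = 0.0471) or with no filter on low counts (0.32, adjusted p = 0.00791).

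**Figure D2:**
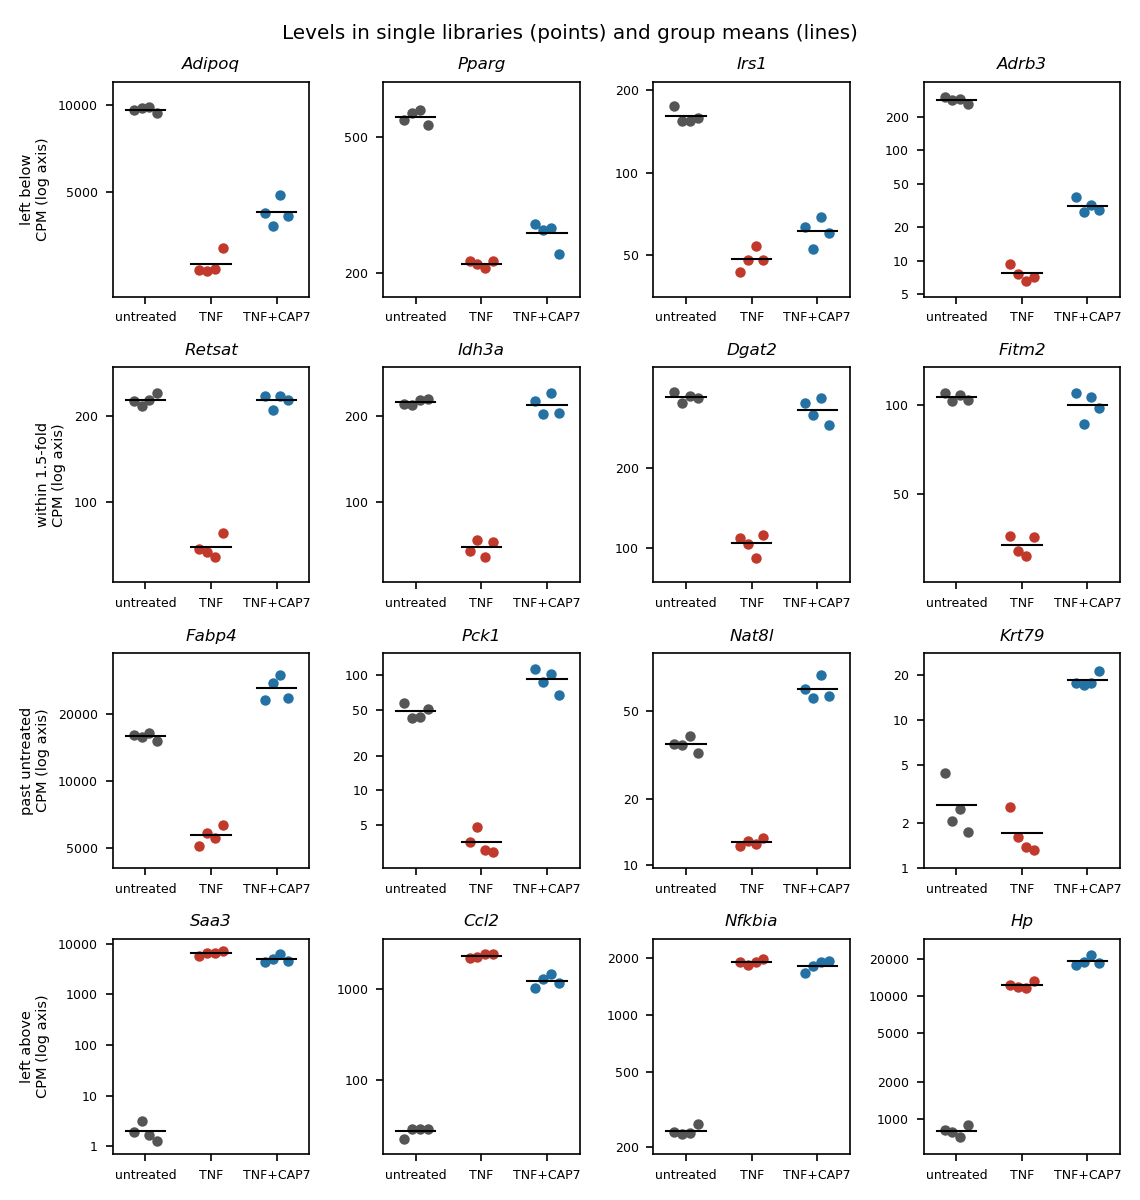
Levels in CPM (vertical axes, log scale) of 16 genes in untreated cells, with TNF alone and with TNF plus CAP7, where each point is 1 library and each line the mean of 4. The rows hold genes left below, within 1.5-fold of, past, and left above untreated. The blue points of Retsat and Idh3a overlap the grey untreated points in part, some lying outside their range, and those of Adipoq and Ccl2 lie between the other groups.

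Above untreated, among genes that TNF alone had lowered, stood direct targets of PPARγ. Fabp4 (ENSMUSG00000062515), the fatty acid binding protein of fat cells, was at 16133, 15679.7, 16415 and 15137 CPM in untreated cells, 5095, 5825, 5524 and 6325 with TNF alone and 23058, 27595, 29806 and 23470.2 with TNF plus CAP7. The lowest TNF plus CAP7 library lay above the highest untreated one, and Fabp4 was 0.71 ± 0.10 against untreated (adjusted p = 2.46e-07). Pck1 (ENSMUSG00000027513), which makes the glycerol backbone of triglycerides from small precursors, was at 57.3, 41.9, 43.3 and 50.6 CPM untreated, 3.55, 4.84, 3.05 and 2.92 with TNF alone and 112, 87.4, 102 and 66.7 with TNF plus CAP7. Pck1 thus went from -3.77 with TNF alone to 0.93 ± 0.13 past untreated, and CAP7 without TNF-alpha had it at 2.00 ± 0.13. Krt79, a keratin, stood at 2.68 ± 1.17 CPM untreated and 18.6 ± 1.94 with TNF plus CAP7 (2.72 ± 0.18), and Nat8l, which makes N-acetylaspartate, at 35.4 ± 2.67 and 63.2 ± 7.14 CPM (0.83 ± 0.084).

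Metabolic and transport genes were in the same class. Pdk4, a kinase that inhibits pyruvate dehydrogenase, was 0.63 ± 0.15 against untreated, and Slc25a51, the mitochondrial NAD carrier, 0.93 ± 0.071. TNF alone had changed Slc25a51 little, by -0.18 ± 0.071, and CAP7 without TNF-alpha had it at 0.77 ± 0.071. Cd1d1, which presents lipid antigens, was 0.84 ± 0.16 against untreated, and Cavin1, a coat protein of caveolae, 0.62 ± 0.055. Acaa1b, a peroxisomal thiolase, was 1.65 ± 0.27 at a low level, 2.03 ± 1.1 CPM untreated and 6.33 ± 2.13 with TNF plus CAP7, and its copy Acaa1a can share its reads, since no source used here says how reads shared by several genes were counted. Cd36, a fatty acid transporter, was 0.18 ± 0.063 (adjusted p = 0.0175), a call that was lost with library size alone (0.098, adjusted p = 0.205) and without the third TNF plus CAP7 library or the second or the third untreated library (0.16 in each, adjusted p = 0.0598, 0.0659 and 0.0589).

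The 34 tested PPARγ targets were split by this comparison. TNF alone had lowered 29 of them, and with TNF plus CAP7 11 of these were left below untreated, 7 were within the band, 1 was unresolved and 10 were above. The 3 that TNF alone had raised were all above untreated. In all, 14 of 34 were higher and 11 lower than in untreated cells, beside 21.4% and 19.2% of all genes, and the median went from -1.43 to 0.12. With library size alone 11 were higher and 12 lower, with a median of 0.03. CAP7 without TNF-alpha had 31 of the 34 higher and 0 lower, beside 15.2% and 15% of all genes (30.3% in either direction), where library size alone moved the median of all genes by -0.110.

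Of the genes that TNF alone had raised, several of the fat cell's own stress and droplet proteins were raised further. Angptl4, an inhibitor of lipoprotein lipase, was at 161, 158, 154 and 152 CPM untreated, 591, 558, 603 and 669.8 with TNF alone and 913, 1066, 958 and 992 with TNF plus CAP7. The 3 groups rose in that order without overlap, and Angptl4 was 2.65 ± 0.065 against untreated. Hilpda, which inhibits the triglyceride lipase ATGL, stood at 83.9 ± 5.99, 126 ± 10.6 and 259 ± 56.4 CPM in the same order, Plin2, a droplet coat protein, at 212 ± 5.41, 357 ± 26.6 and 494 ± 58.8 CPM, and Hmox1, the heme oxygenase of the oxidative stress response, at 113 ± 13.8, 172 ± 19.8 and 308 ± 117 CPM. CAP7 without TNF-alpha had these 4 genes above untreated as well, at 1.13 for Angptl4, 1.43 for Hilpda, 1.41 for Plin2 and 2.31 for Hmox1. Cebpb, an early factor of fat cell differentiation and of inflammation, was 0.79 ± 0.09 against untreated, and its difference from TNF alone, 0.14 ± 0.088, did not pass the test.

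The genes left above untreated were led by NF-κB and interferon targets, and the promoters of 4 of them are shown here because their letters bear on both programs. Each is the stretch of 250 bases before the gene's RefSeq start, written 5′ to 3′ along the gene, and capitals mark, on either strand, an NF-κB motif (the letters GGGA and TTCC with any 2 bases between them) and an interferon response motif (GAAA and again GAAA with any 2 bases between them). The first is of Cxcl1, a neutrophil chemokine (chr5:90890995-90891244, plus strand), the second of Nfkbia, the inhibitor of NF-κB (chr12:55492648-55492897, minus strand), the third of Cxcl10, a chemokine of the interferon response (chr5:92348890-92349139, minus strand), and the fourth of Gbp5, an interferon-inducible GTPase (chr3:142496684-142496933, plus strand), all in build GRCm38.p6 from RefSeq.
Cxcl1: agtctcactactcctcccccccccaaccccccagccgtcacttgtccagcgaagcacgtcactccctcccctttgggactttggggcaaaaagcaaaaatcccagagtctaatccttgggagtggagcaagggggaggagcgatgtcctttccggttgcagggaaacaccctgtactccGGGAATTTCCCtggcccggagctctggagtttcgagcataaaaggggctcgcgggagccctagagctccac
Nfkbia: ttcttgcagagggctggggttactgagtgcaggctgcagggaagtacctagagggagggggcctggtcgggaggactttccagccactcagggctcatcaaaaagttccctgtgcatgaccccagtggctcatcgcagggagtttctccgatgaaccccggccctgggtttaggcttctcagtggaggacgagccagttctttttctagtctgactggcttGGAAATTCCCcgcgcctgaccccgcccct
Cxcl10: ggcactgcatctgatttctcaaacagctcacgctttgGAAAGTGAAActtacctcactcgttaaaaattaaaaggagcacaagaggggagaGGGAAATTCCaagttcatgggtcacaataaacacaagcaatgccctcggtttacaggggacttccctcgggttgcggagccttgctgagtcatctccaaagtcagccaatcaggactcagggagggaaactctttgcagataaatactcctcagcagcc
Gbp5: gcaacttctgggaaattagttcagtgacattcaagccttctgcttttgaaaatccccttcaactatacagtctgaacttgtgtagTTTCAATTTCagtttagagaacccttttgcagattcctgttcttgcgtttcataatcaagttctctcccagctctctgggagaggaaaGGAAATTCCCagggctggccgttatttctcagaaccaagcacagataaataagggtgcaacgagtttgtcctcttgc
Both NF-κB matches in Cxcl1 overlap, on opposite strands. Cxcl10 and Gbp5 hold letters of both kinds, while in Cxcl1 and Nfkbia only the NF-κB letters were found in this window. The shares that follow were counted over a longer window, which also took in the first bases after the start. Among 32851 RefSeq promoters 1.47% held the NF-κB letters and 3.44% the interferon letters, and among those of tested genes 1.5% and 3.1%. In the list of NF-κB genes 8 of 40 promoters (20%) held the first, and in the interferon list 20 of 35 (57.1%) held the second. Among the promoters of raised genes left above untreated the shares were 2.11% and 5.15%, and among those of raised genes within the band 2.56% and 2.46%. A match is a description of the letters, not evidence that a factor binds there.

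All 46 tested genes of the NF-κB and TNF response had been raised by TNF alone, and all 46 were left above untreated, beside 21.4% of all genes called higher. Their median change was 3.41 with TNF alone and 2.94 with TNF plus CAP7. CAP7 lowered 25 of them from TNF alone and raised 2, beside 14.2% of all genes lowered and 18% raised. Nfkbia (ENSMUSG00000021025) was at 239, 235, 238 and 266 CPM in untreated cells, 1893, 1831, 1889 and 1968 with TNF alone and 1659.5, 1800.5, 1887 and 1914 with TNF plus CAP7. It was 2.89 ± 0.073 against untreated (adjusted p = 8.34e-29), and -0.06 ± 0.067 against TNF alone with a 95% interval of -0.20 to 0.07, which did not pass the test. Tnfaip3, the ubiquitin-editing enzyme A20 that dampens NF-κB, was 3.77 ± 0.14 against untreated. Cxcl1 was at 6.12, 8.74, 7.91 and 8.4 CPM untreated, 372, 339, 381 and 319 with TNF alone and 247, 265, 314 and 243 with TNF plus CAP7, 5.12 ± 0.14 against untreated.

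The chemokines Ccl2 and Ccl5 were lower with CAP7 than with TNF alone and still called above untreated. Ccl2 (ENSMUSG00000035385) was at 22.4, 29.1, 28.9 and 29 CPM in untreated cells, 2228, 2287, 2486 and 2456 with TNF alone and 1041, 1287, 1466 and 1186 with TNF plus CAP7. It fell by 0.93 ± 0.12 from TNF alone and was left 5.52 ± 0.15 above untreated (adjusted p = 1.79e-27). Ccl5 was at 0.651, 0.842, 0.462 and 0.504 CPM untreated, 394, 447, 453 and 533 with TNF alone and 123, 115, 214 and 133 with TNF plus CAP7, so that it fell by 1.64 ± 0.18 and was still 7.86 ± 0.32 above untreated. Il6, an inflammatory cytokine, was low throughout, at 0.447 ± 0.496, 6.04 ± 0.956 and 2.07 ± 0.95 CPM in the same order, and Wfdc17, a gene with a whey acidic protein domain, was at 1.83 ± 0.469, 51.4 ± 7.16 and 11.7 ± 2.6 CPM. Of these 4 genes, Wfdc17 had the largest difference, -2.13 ± 0.18 from TNF alone, and was still called above untreated.

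Acute phase proteins went in both directions between TNF alone and TNF plus CAP7. Saa3 (ENSMUSG00000040026), a serum amyloid, was the furthest above untreated of the named genes with counts in both groups, at 1.95, 3.11, 1.65 and 1.26 CPM untreated, 5704, 6444, 6479 and 7062 with TNF alone and 4404, 4937, 6288 and 4609 with TNF plus CAP7. Saa3 was 11.28 ± 0.22 against untreated, and other serum amyloid genes can share its reads. Hp, haptoglobin, which binds free haemoglobin, was at 808, 778, 708 and 885 CPM untreated, 12290.1, 11687, 11531 and 13163 with TNF alone and 17905, 18917, 21273 and 18506 with TNF plus CAP7. In contrast to Saa3, Hp was higher with CAP7 than with TNF alone, by 0.65 ± 0.082, and stood 4.59 ± 0.095 above untreated, although CAP7 without TNF-alpha had Hp 1.60 ± 0.084 below untreated. Cfb, complement factor B (973 ± 78.1 CPM with TNF alone, 1648 ± 123 with TNF plus CAP7), Hpx, the heme carrier hemopexin (609 ± 47.4 and 1064 ± 169.5 CPM), and Lcn2, which sequesters iron siderophores (88.2 ± 11.9 and 121 ± 14.2 CPM), were likewise higher with CAP7. These 3 genes were 6.69, 7.70 and 6.03 above untreated. Of 25 acute phase and complement genes 18 were above untreated and 5 below (21.4% and 19.2% of all genes), with a median of 1.36 against 1.69 with TNF alone. CAP7 raised 5 and lowered 13 of the 25 from TNF alone (18% and 14.2% of all genes).

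Interferon-responsive genes and antigen presentation were left above untreated almost throughout. Of 41 interferon response genes, all raised by TNF alone, 40 were above untreated and 1 was unresolved, and the median went from 2.63 to 2.24. CAP7 lowered 6 of the 41 from TNF alone and raised 0, beside 14.2% of all genes lowered and 18% raised. The share lowered was thus near that of all genes, while the median change of the list from TNF alone was -0.49, beside 0.00 over all genes. Gbp5 had 0 counts in the 4 untreated libraries and was at 59.6, 61.4, 67.3 and 85.7 CPM with TNF alone and 42, 37.5, 43.5 and 63.3 with TNF plus CAP7, at least 1038-fold above untreated at a floor of 3 counts over the group (0.0457 CPM). Cxcl10 was at 0.347, 0.388, 2.37 and 2.77 CPM untreated, 237, 261, 379 and 449.8 with TNF alone and 167, 136, 206 and 213 with TNF plus CAP7. Its libraries spread widely within each group given TNF-alpha, and it was 7.12 ± 0.45 against untreated. Irf1, an interferon regulatory factor, was 2.53 ± 0.082, with 455 ± 34.1 CPM with TNF alone and 347 ± 15.3 with TNF plus CAP7.

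Of 20 genes of MHC class I and the immunoproteasome, 19 were raised by TNF alone and 19 were above untreated with TNF plus CAP7. The remaining 1 was within the band, and the medians were 1.64 and 1.46. Of all genes tested 21.4% were above untreated, and of all genes raised by TNF alone 64.9% were left above. H2-K1, a class I heavy chain that has near-identical relatives and is therefore uncertain, was 2.18 ± 0.09 against untreated, and higher with CAP7 than with TNF alone by 0.44 ± 0.087. Psmb8, a catalytic subunit of the immunoproteasome, was 3.15 ± 0.17. Genes of immune and tissue remodelling stood far above untreated as well: Mmp3, a matrix protease, went from 5.68 ± 1.06 CPM untreated to 606 ± 82.4 with TNF plus CAP7, and Slc15a3, a lysosomal peptide transporter, from 0.13 ± 0.128 to 41.3 ± 5.6. Cybb, the catalytic subunit of the phagocyte NADPH oxidase, had 3 counts in the 4 untreated libraries together and 4300 with TNF plus CAP7, a ratio of 999 with a counting interval of 342 to 4847. Sod2, the mitochondrial superoxide dismutase, was at 212 ± 11 CPM untreated, 992 ± 48.1 with TNF alone and 1592 ± 114 with TNF plus CAP7, and so was further from untreated with CAP7 (2.91 ± 0.066) than without (2.22 ± 0.064). Beside these groups, the summed level of the 4 measured leukocyte markers was 1.78 to 4.03 CPM untreated, 11.3 to 14.6 CPM with TNF alone and 5.10 to 8.28 CPM with TNF plus CAP7. With TNF plus CAP7 2 of the 4 were called above untreated, among them Cd68, a lysosomal protein of macrophages (0.942 ± 0.496 and 4.19 ± 1.17 CPM). Mrc1, another marker of this list, had 0 counts untreated and 56 with TNF plus CAP7, at least 13-fold higher at the floor of 3 counts. In untreated and TNF plus CAP7 libraries, Ptprc, Adgre1 and Itgam were at 0 counts, while Csf1r had 80 and 141 and Lyz2 had 25 and 59 counts over the 4 libraries. With TNF alone Ptprc had 6 and Itgam 3 counts. The part of these markers in the results was not tested.

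Few strongly raised genes were back at the untreated level. Slc29a1, a nucleoside transporter, was at 84.2, 75.3, 75.8 and 76.9 CPM in untreated cells, 177, 179.7, 206 and 193 with TNF alone and 56.7, 94, 111 and 85.1 with TNF plus CAP7, where it differed from untreated by 0.15 ± 0.13. Without the first TNF plus CAP7 library the difference was 0.31 and was called (adjusted p = 0.0247). Cyp2f2, a cytochrome P450, was at 43.9 ± 7.22, 103 ± 8.99 and 52.9 ± 6.84 CPM in the same order, with 0.27 ± 0.12 against untreated, which was called under 5 of the alternatives, at 0.26 to 0.36. Myof, a membrane repair protein, and Cebpd, a transcription factor of early differentiation and of inflammation, were within the band at 0.18 ± 0.098 and 0.09 ± 0.10. CAP7 without TNF-alpha had these 4 genes below untreated, at -1.30, -2.05, -0.66 and -0.44.

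The 32 raised genes that were below untreated held smaller changes, and 0 of the 32 were 2-fold below. Vim, the intermediate filament vimentin, was at 1462, 1418, 1367 and 1310.0 CPM untreated, 1522, 1585, 1558 and 1592 with TNF alone and 885, 1122, 1069.8 and 977 with TNF plus CAP7. Its TNF plus CAP7 libraries all lay under the untreated ones, and it was -0.46 ± 0.07 against untreated. Adamts5, a protease that cuts matrix proteoglycans, was raised by 0.76 with TNF alone and was -0.47 ± 0.091 against untreated with CAP7. Maoa, monoamine oxidase A, was -0.53 ± 0.092, Cd9, a tetraspanin, -0.44 ± 0.08, and Gstt3, a glutathione transferase with close relatives, -0.51 ± 0.094. With library size alone 74 raised genes were below untreated in place of 32.

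Changes were also called in genes that TNF alone had not changed by this test. Hcar2, a receptor that restrains lipolysis, was at 18.6, 17.4, 19 and 21.4 CPM in untreated cells, 21.9, 18.8, 18.8 and 17.5 with TNF alone and 58.4, 47.7, 60.6 and 40.3 with TNF plus CAP7. It was 1.44 ± 0.12 above untreated and 1.55 ± 0.12 above with CAP7 alone. Ero1l, the oxidase that forms disulphide bonds in the endoplasmic reticulum, was at 379.9, 374, 300.0 and 375 CPM untreated, 394, 372, 329 and 462 with TNF alone and 922, 1024, 550.0 and 1158 with TNF plus CAP7. The third library was the lowest of each of these 3 groups. Its change of 1.35 ± 0.19 with TNF-alpha stood beside 1.76 ± 0.19 without. Chchd10, a mitochondrial intermembrane protein, was 1.59 ± 0.22, Bckdhb, a subunit of the branched-chain ketoacid dehydrogenase, 1.32 ± 0.092, and Acaa1a, a peroxisomal thiolase, 1.04 ± 0.075. In the other direction, Pdgfrb, a growth factor receptor of stromal cells, was -0.76 ± 0.10 and Kitl, the ligand of the receptor KIT, -0.78 ± 0.083, with -0.70 and -0.91 under CAP7 alone.

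Genes of mitochondrial energy metabolism differed in how near to untreated they came. Among all genes lowered by TNF alone, 56.4% were left below, 25.7% were within the band and 3.3% were above. Over all genes tested, 31.8% were within the band and 19.2% were below untreated. All 39 respiratory chain and ATP synthase genes had been lowered by TNF alone, with 30 left below untreated, 9 within the band and 0 above, and the median went from -0.98 to -0.30. Ndufb10, a subunit of complex I, was at 396, 421, 416 and 373 CPM untreated, 129, 134, 122 and 128 with TNF alone and 251, 229, 267 and 215 with TNF plus CAP7. It was -0.74 ± 0.086 against untreated with no overlap, and Sdhc, an anchor subunit of complex II, was -0.61 ± 0.067. Of 28 mitochondrial ribosome genes TNF alone had lowered 19, and 20 of the 28 were within the band and 8 below untreated, and the median was -0.04. Of 27 genes of fat oxidation 23 had been lowered by TNF alone, and of these 7 were left below, 10 were within the band and 6 were above untreated. Of 26 genes of the citric acid cycle and pyruvate entry TNF alone had lowered 24, and 15 of these were left below. Mdh1, the cytosolic malate dehydrogenase, was -0.94 ± 0.097 against untreated and Pdhb, a subunit of pyruvate dehydrogenase, -0.73 ± 0.063.

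Breakdown of branched-chain amino acids stayed below untreated in nearly all its genes. Among all genes lowered by TNF alone, 56.4% were left below, 25.7% were within the band and 3.3% were above. Of 23 genes TNF alone had lowered 22, of which 20 were left below untreated and 2 were within the band, and the median was -0.54 after -0.97 with TNF alone. Ivd, isovaleryl-CoA dehydrogenase, was at 191, 167, 178 and 179.5 CPM untreated, 56.6, 56.2, 59.7 and 62.1 with TNF alone and 61.9, 63.8, 75.7 and 69.4 with TNF plus CAP7. The TNF plus CAP7 libraries of Ivd lay close to those of TNF alone, at -1.40 ± 0.08 against untreated and 0.21 ± 0.08 against TNF alone. Bcat2, the mitochondrial branched-chain aminotransferase, was -1.32 ± 0.087. Bckdhb, given above, was the 1 gene of this list above untreated. Of 23 genes of cholesterol synthesis and uptake TNF alone had lowered 21, of which 16 were left below, 4 were within the band and 1 was above (0 above with library size alone), with Insig1, which restrains the sterol response, at -1.24 ± 0.10 and Hmgcs1, which makes the precursor of the sterol pathway, at -0.55 ± 0.067.

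Glycolysis and insulin signalling moved in different directions from untreated, where 21.4% of all genes were higher and 19.2% lower. Of 22 glycolysis and glucose uptake genes 13 were above untreated and 4 below with TNF plus CAP7, while TNF alone had 4 higher and 12 lower, and the medians were 0.35 and -0.27. Pfkl, a phosphofructokinase, was at 354, 372, 379 and 361 CPM untreated, 335, 316, 319 and 346 with TNF alone and 598, 589, 581 and 613 with TNF plus CAP7. It was 0.70 ± 0.053 against untreated with no overlap of the libraries, and Slc16a1, the lactate and pyruvate transporter MCT1, was 1.58 ± 0.10. Of 34 insulin signalling genes 16 were below untreated and 5 above, with a median of -0.26 after -0.58. Irs1, the first substrate of the insulin receptor, was at 175, 155, 155 and 159 CPM untreated, 43.5, 48.1, 54 and 47.8 with TNF alone and 63.5, 52.7, 68.8 and 60.4 with TNF plus CAP7. It was left 1.39 ± 0.076 below untreated (adjusted p = 5.31e-18).

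**Figure D3:**
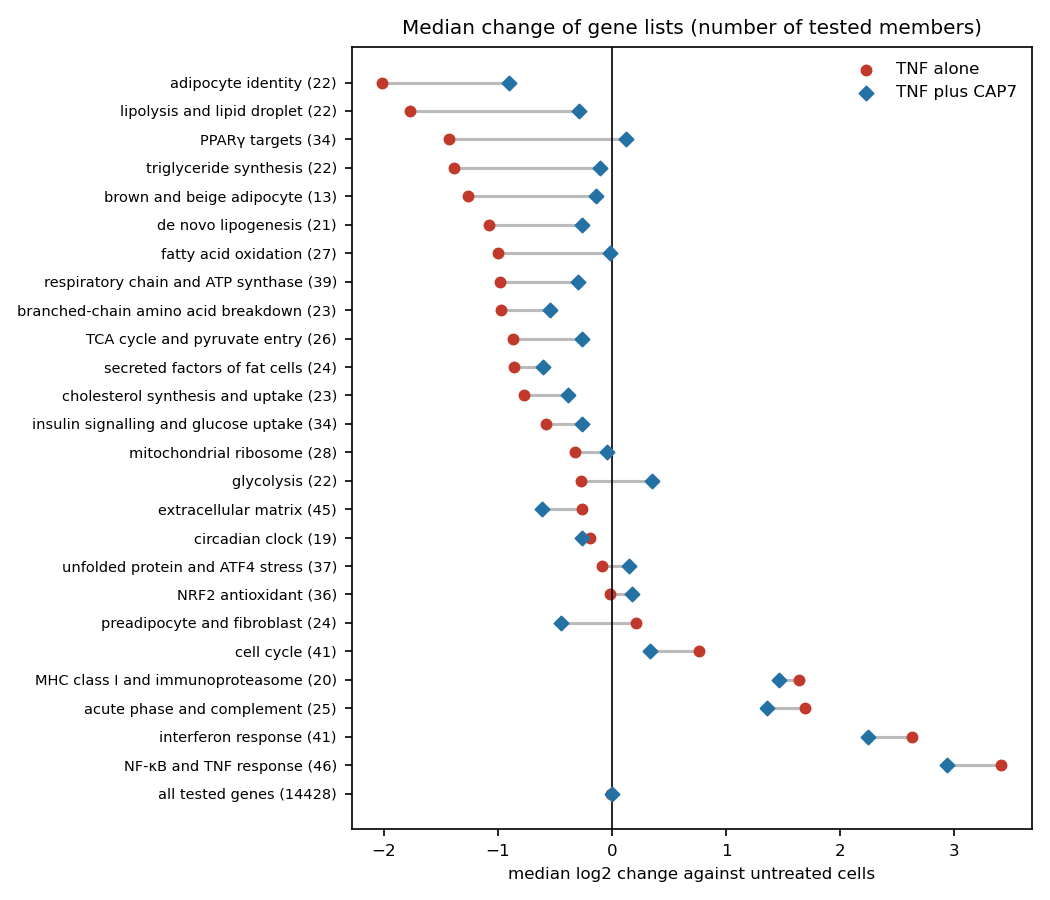
Median log2 change against untreated cells (horizontal axis) of the tested members of each gene list, with TNF alone (red circles) and with TNF plus CAP7 (blue diamonds), and the number of members in brackets. The adipocyte identity list goes from -2.01 to -0.90, the PPARγ targets from -1.43 to 0.12, and the NF-κB list from 3.41 to 2.94.

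Stress and growth lists were mixed, and their counts stand beside 21.4% of all genes above untreated and 19.2% below. Of 36 NRF2 antioxidant genes 18 were above untreated and 9 below, with Cbr3, a carbonyl reductase, at 1.76 ± 0.086 and Gpx1, a glutathione peroxidase, at 1.34 ± 0.071 above, and Cat, catalase, at -0.75 ± 0.067 and Gstm1, a glutathione transferase with close relatives, at 102 ± 6.01 CPM against 203 ± 9.74 untreated below. Counted over the window that runs past the start, their promoters held the antioxidant response letters TGACNNNGC in 12 of 41 cases (29.3%). The share was 12.4% of all promoters and 14.3% of those of tested genes. Of 37 genes of the unfolded protein and ATF4 stress response 16 were above and 7 below. Hspa5, the endoplasmic reticulum chaperone BiP, was 0.87 ± 0.048 against untreated, and Dnajb9, a co-chaperone of BiP that TNF alone had lowered by 0.66 ± 0.063, was 0.61 ± 0.062. Of 41 cell cycle genes TNF alone had raised 36, of which 19 were left above untreated, 11 were within the band and 6 were unresolved, with medians of 0.76 and 0.33. With library size alone 12 of the 41 were above untreated and 1 below. Mcm3, a subunit of the replication helicase, was 1.03 ± 0.11 against untreated and Tk1, thymidine kinase, 0.84 ± 0.12. In the same window the E2F letters TTTCCCGC or TTTGGCGC were in 8 of 37 promoters (21.6%) of this list, in 1.56% of all promoters and in 2.84% of those of tested genes.

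Many matrix and stromal genes were below untreated, where 19.2% of all genes were lower and 21.4% higher. From TNF alone, CAP7 lowered 14.2% of all genes and raised 18%. Of 45 matrix genes 29 were below untreated and 9 above, with a median of -0.61 after -0.26, and CAP7 lowered 22 of the 45 from TNF alone and raised 4. Thbs2, a thrombospondin, was -1.25 ± 0.076 against untreated. Timp1, an inhibitor of matrix proteases, went the other way, at 64.8, 68, 56 and 75.1 CPM untreated, 953, 1035, 1154 and 1054 with TNF alone and 326, 474, 543 and 444 with TNF plus CAP7. Its level fell by 1.23 ± 0.14 from TNF alone and was left 2.76 ± 0.15 above untreated, while CAP7 without TNF-alpha had it at -1.71 ± 0.15. Of 24 preadipocyte and fibroblast markers 13 were below and 6 above, with Dlk1, an inhibitor of differentiation, at -0.97 ± 0.087 and Cd44, a hyaluronan receptor, at 2.64 ± 0.096. Of 24 secreted factors of fat cells 17 were below and 4 above. Of 19 clock genes 9 were below and 3 above (1 above with library size alone), with Dbp, an output factor of the clock, at 54.1 ± 6.06 CPM against 108 ± 9.51 untreated. Of 13 brown and beige fat genes 4 were above and 4 below, and of 5 aryl hydrocarbon receptor targets 3 were above and 1 below. The summed level of the 4 measured vessel markers was 8.99 to 11.8 CPM untreated, 4.75 to 5.91 CPM with TNF alone and 3.82 to 5.63 CPM with TNF plus CAP7, and its part in these results was not tested.

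The state reached with CAP7 was then set beside that reached with rosiglitazone and with SCO under TNF-alpha, in 2 direct comparisons that share the TNF plus CAP7 libraries and were adjusted each over all genes. No doses are known here, so the values compare these treatments as they were applied. Against TNF plus rosiglitazone 502 genes were higher with CAP7 (3.48%) and 735 lower (5.09%), and against TNF plus SCO 726 were higher (5.03%) and 596 lower (4.13%). With library size alone, 756 were higher and 465 lower than with rosiglitazone, and 549 were higher and 857 lower than with SCO, so both balances turned with the scaling. The counts against SCO were 427 and 296 without the first TNF plus CAP7 library, and 385 and 304 without the third TNF plus SCO library. Of the 34 PPARγ targets 28 were lower than with rosiglitazone and 0 higher, and 16 were higher than with SCO and 0 lower. Of 39 respiratory chain genes 11 were lower than with rosiglitazone and 20 higher than with SCO. In either direction 8.57% of all genes were called against rosiglitazone and 9.16% against SCO. Of 36 NRF2 genes 14 were higher and 3 lower than with rosiglitazone, and 2 were higher and 4 lower than with SCO.

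Among named genes, Selenow, a small selenoprotein, was at 126, 132, 139 and 125 CPM with TNF plus CAP7, 41.6, 45.6, 39.9 and 44.7 with TNF plus rosiglitazone and 40.7, 47.3, 38.1 and 43.3 with TNF plus SCO. The CAP7 libraries lay above all others, at 1.60 ± 0.073 against rosiglitazone and 1.62 ± 0.073 against SCO, and untreated cells were at 42.2 ± 3 CPM. Ero1l was likewise higher with CAP7 than with either, by 0.95 ± 0.18 and 0.89 ± 0.18. Camp, an antimicrobial peptide, was higher than with rosiglitazone by 1.60 ± 0.18, and Rasl11a by 1.44 ± 0.24. Lower than with rosiglitazone were Acaa1b (-2.85 ± 0.21), Gk, the glycerol kinase (-1.46 ± 0.12), Pdk4 (-1.26 ± 0.14), Pck1 (-1.23 ± 0.13) and Olr1, a receptor of oxidised lipoproteins (-1.77 ± 0.11). Against SCO, Thrsp (1.17 ± 0.15), Ppp1r3c, which targets a phosphatase to glycogen (1.24 ± 0.11), and Isg20, an interferon-induced exonuclease (1.17 ± 0.22), were higher, and Nqo1, a quinone reductase (-0.96 ± 0.10), Maoa (-0.91 ± 0.091) and Wfdc17 (-1.21 ± 0.18) were lower. For Adipoq the differences were small, -0.22 ± 0.071 from rosiglitazone and 0.28 ± 0.071 from SCO, and all 3 treatments left it below untreated, at 4248 ± 442, 4961 ± 450.0 and 3503 ± 118 CPM for CAP7, rosiglitazone and SCO against 9633 ± 214. Fabp4 did not pass the test against SCO (-0.04 ± 0.10, 95% interval -0.24 to 0.17).

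**Figure D4:**
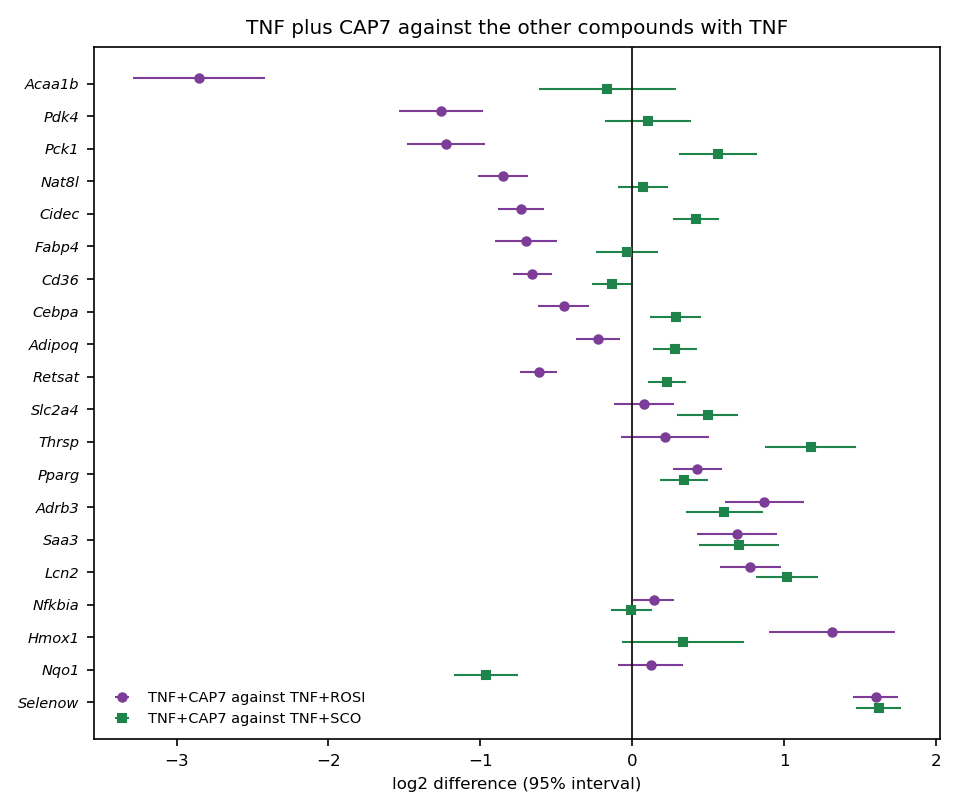
Log2 difference of TNF plus CAP7 from TNF plus rosiglitazone (purple circles) and from TNF plus SCO (green squares) for 20 named genes. Bars are 95% intervals derived from edgeR's F test (4 against 4 libraries). Selenow lies above 0 in both comparisons, and of the genes plotted, Acaa1b, Pdk4 and Pck1 lie furthest below 0 against rosiglitazone.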

How the data were processed

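RNA of 3T3-L1 adipocytes was sequenced in 32 libraries, and 8 of these (untreated, and TNF-alpha plus CAP7) carry the comparison described here. The values are the authors' deposited raw counts for each Ensembl gene in every library, not normalized. Per the labels' protocols, a QuantSeq 3' kit was used, which reads the end of each transcript. The submitters' processing notes name cutadapt (4.9), STAR (2.7.11b), HTSeq (2.0.5), R (4.4.1), limma (3.60.6) and the build GRCm39. They give no strand or multi-mapping setting.

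The table lists 57186 genes, 28862 with a count, and filterByExpr kept 14428. The test was the quasi-likelihood F test of edgeR 4.0.16 (R 4.3.3) with TMM scaling and a mean for each group, over all 32 libraries, which left 24 residual degrees of freedom. P-values were adjusted by Benjamini-Hochberg over all tested genes. Standard errors were derived as the size of the change divided by the square root of F. The 95% intervals are the change plus or minus a t quantile times this standard error. CPM are counts per 1e6 counts of TMM-scaled library size. Totals of 11.3 to 37.7 M counts (M, counts in 1e6) set the precision, and counting intervals cover counting error only. Symbols came from an annotation of GRCm38, another build than that of the counts, and promoters from RefSeq (GRCm38.p6).

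The members, the 28 gene lists and the tests were chosen with earlier results of these data known. Lists share genes. Named genes had to reach 16 CPM in a group and were the 8 largest of each class (5 per direction for genes not called for TNF and for comparisons with the other compounds), up to 5 members of each list with the lowest p, and a list written by hand. Largest meant the change from untreated, or the TNF change for genes within the band, and libraries were not to overlap except within the band. The alternatives were RLE factors, library size alone, no filter or a stricter one (5 CPM in 4 libraries), DESeq2 1.42.0, limma-voom (limma 3.58.1), only the groups compared, a replicate block, bands of 1.3-fold and 2-fold, TNF-called genes from the SCO and ROSI libraries, and leaving out each library. The script was tested on simulated counts.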

Additional observations from a re-analysis of the deposited data

Results flagged for a closer look

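In 18 of 345 sets of 4 values (115 named genes in each of 3 groups) and in 1 of 6 sets of principal component scores, 1 library stood apart from the other 3, beyond Dixon's 95% limit for the gap as a share of the range. Chance alone sets apart about 1 in 20 such sets.

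With TNF plus CAP7, the first library had a first principal component score of 27.5, where the others were at 32.5 to 33.4. The second library had Tmem182 at 18.4 CPM (others 26.6 to 27.6) and Irf1 at 324 CPM (others 353 to 355). The third had Aspn at 9.62 CPM (others 5.70 to 6.20) and Cat at 164 CPM (others 140 to 142). The fourth had Krt79 at 21.5 CPM (others 17.3 to 17.8) and Hmgcs1 at 419.9 CPM (others 366 to 368).

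In untreated cells, Ccl2 was at 22.4 CPM in the first library (others 28.9 to 29.1), Cd9 at 108 CPM (others 114 in each) and Camp at 2.27 CPM (others 0.840 to 0.989) in the second, Ero1l at 300.0 CPM in the third (others 374 to 380), and Nfkbia at 266 CPM (others 235 to 239) and Cd68 at 1.68 CPM (others 0.647 to 0.791) in the fourth.

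With TNF alone, the first library had Klf15 at 11.6 CPM (others 8.11 to 8.61) and Slc25a34 at 7.88 CPM (others 5.27 to 5.64), the second had Maoa at 81.6 CPM (others 69.2 to 70.5), and the third had Adamts5 at 233 CPM (others 209 to 211). The fourth had Adipoq at 3192 CPM (others 2655 to 2700) and Thbs2 at 21.1 CPM (others 24.8 to 25.3).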

How the results depend on the processing

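Of the counts of genes recomputed under the alternatives, 376 stayed within 1.5 times the count given and 24 did not, and of the counts within gene lists 1080 did and 40 did not. Of 115 named genes, the call against untreated changed for Dgat2, Aldh3b2, Cd36, Slc29a1 and Cyp2f2, as given above. No named gene called against untreated changed sign. Retsat and Trarg1, which lay near 0 and were not called, changed sign: Retsat with no filter on low counts, without the second TNF plus CAP7 library and without the last untreated library, and Trarg1 with library size alone. Balances of higher and lower counts also turned with library size alone. In that setting TNF plus CAP7 was higher than untreated in 2418 genes and lower in 3593, and higher than TNF alone in 1954 and lower in 3343, CAP7 alone was higher than untreated in 1353 and lower in 3351, and TNF plus CAP7 was higher than TNF plus rosiglitazone in 756 and lower in 465, and higher than TNF plus SCO in 549 and lower in 857. There 74 raised genes were below untreated, 79 lowered genes were above it and 675 lowered genes were within the band. With only the groups compared, 433 genes were lower than with rosiglitazone, and 404 were higher and 334 lower than with SCO. The stricter filter left 140 lowered and 150 raised genes unresolved, since it tests fewer genes of low level. A band of 1.3-fold held 606 raised genes and left 872 lowered and 715 raised genes unresolved, and a band of 2-fold left 343 and 185. With TNF-called genes from the SCO and ROSI libraries, 113 raised genes were below untreated and 625 were unresolved. Apart from the bands and the filter, the cause of these shifts was not tested.

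Leaving out each library in turn gave 2758 to 3071 genes above and 2511 to 2816 below untreated with TNF plus CAP7. With TNF alone these were 3607 to 3865 and 3724 to 3986, and with CAP7 alone 1827 to 2045 and 1868 to 2100. TNF plus CAP7 against TNF alone gave 2278 to 2573 higher and 1702 to 2066 lower, against rosiglitazone 375 to 450 and 505 to 716, and against SCO 385 to 805 and 296 to 722. Lowered genes were left below in 2026 to 2221 cases, within the band in 913 to 1124, unresolved in 501 to 699 and above in 104 to 129. Raised genes were left above in 2257 to 2490, within the band in 850 to 1042, unresolved in 305 to 471 and below in 22 to 33.

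The labels do not say whether replicate numbers pair the libraries, and the correlations of same-numbered deviations were weak, from -0.225 to 0.162. The same number was still the best match for most libraries between untreated and TNF alone, and between TNF alone and TNF plus CAP7. Between untreated and TNF plus CAP7 it was the best match only for the fourth. A shared effect of replicate number was not tested beyond the block below. With the replicate number as a block, 3104 genes were above and 2776 below untreated, 2238 lowered genes were left below and 2504 raised genes were left above, and none of the other counts moved by more than 1.5 times.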
